A study of Rattus norvegicus with 12 samples.

Results

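Cholesterol synthesis was followed through 7 genes in rat hepatocytes. Hmgcs1, Idi1 and Fdps encode enzymes of the mevalonate stage, Sqle and Tm7sf2 encode enzymes of the sterol stage, Insig1 encodes the sterol sensor that holds the SREBP transcription factors in the endoplasmic reticulum, and Srebf2 encodes SREBP2 itself. The genes were chosen by name from the 32883 genes of the deposited list, and all 7 were counted in every library and passed the filter on low counts in each test described here. None of them is an uptake receptor, so uptake was read only from a wider list of 53 genes of cholesterol handling. In whole cells of total liver homogenate 53.1% of all genes tested did not overlap between the strains. There Hmgcs1, Sqle, Idi1 and Fdps lay above in LEW rats and Insig1 and Srebf2 above in DA rats, with only Idi1 past the test. A single pair of immune-enriched libraries, which gives no test, did not have this order of the enzymes. In nuclei none of the 7 genes passed the strain test, where 1.31% of all genes did, and Sqle, Idi1 and Tm7sf2 overlapped between strains. On liver sections Hmgcs1, Sqle, Idi1, Insig1 and Tm7sf2 passed as higher at the periportal side, where 8.26% of all genes did, and Fdps and Srebf2 did not pass. DESeq2 did not call Sqle and Idi1, and a fit with no section block did not call Insig1 and Idi1. In nuclei only Sqle passed as higher on the periportal side, where 1.93% of all genes did. With other zone genes, where 37.2% of all genes passed in nuclei, Sqle did not pass. Tm7sf2 then passed as pericentral and Insig1 as periportal.

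Hepatocytes make cholesterol from acetyl-CoA through mevalonate, farnesyl diphosphate, squalene and lanosterol. When sterols in the endoplasmic reticulum are low, SCAP escorts SREBP2 to the Golgi, where proteases release its active part, which then raises transcription of the synthesis enzymes and of Insig1. When sterols are high, INSIG proteins retain SCAP and SREBP2, so Insig1 is both a target of the pathway and its brake. The liver is the main organ for synthesis, uptake and biliary disposal of cholesterol, and hepatocytes near the portal vein and near the central vein differ in many metabolic pathways.

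Healthy male rats of the inbred strains Dark Agouti (DA) and Lewis (LEW) gave total liver homogenate (TLH) cells by collagenase digestion, from 2 rats of each strain, and nuclei from frozen liver, from 2 rats of each strain. Immune-enriched cells came from 1 DA and 1 LEW rat, and 2 Visium sections came from outbred Wistar liver, which gave 12 samples in all with no treatment named for any of them. Whole cells were sequenced with 3′ version 2 chemistry, and nuclei and immune-enriched cells with version 3. The series text gives the age as 8 to 10 weeks and the study's methods give an older age, while the names of the deposited files carry 10 weeks for the TLH libraries of DA and 13 weeks for those of LEW, 9 weeks for the immune-enriched ones, and the word sham. Strain and age in the TLH libraries therefore cannot be told apart if the file names hold. The study's methods name a different sequencer model for the TLH libraries than for all other libraries. Between TLH cells and nuclei, preparation, chemistry, sequencer and platform likewise cannot be told apart. Immune-enriched cells share the chemistry and the sequencer model of the nuclei but differ from them in preparation. The study describes the nuclei as taken from further rats, but their file names carry the animal numbers of the TLH libraries, so whether both came from the same livers was not settled. The study describes the sections as coming from 2 Wistar rats, while both section files carry the same number and the labels name no animal.

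After filters, 3844 to 7112 cells per TLH library and 2205 to 5262 nuclei per library were kept, with medians of 1794 to 2545.5 and 1541.5 to 2059 unique molecular identifiers (UMIs). Hepatocyte-like clusters held between 2910 and 4564 whole cells and between 1907 and 4877 nuclei per rat. In the immune-enriched libraries they held 234 DA cells and 1562 LEW cells. Of 24 hepatocyte markers, 21 to 24 were higher in the hepatocyte-like sums than in the other named classes of the same library. The same markers were used to name the clusters, so this order is no check of the names. The median ratio over these markers was 1.36 to 1.76 in TLH libraries and 1.28 to 1.72 in nuclei. In the immune-enriched libraries it was 58.9 in DA and 8.79 in LEW. In TLH and nuclei libraries these markers held 10.2% to 13.8% of the UMIs of the hepatocyte-like sums, beside 6.02% to 9.76% in the other classes. Levels are given as CPM, the UMIs of a gene scaled to a total of 1000000 UMIs, summed over the hepatocyte-like cells of 1 rat, since cells of 1 liver are not replicates. Among nuclei libraries 8 to 24 barcodes were shared by a pair.

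The RefSeq promoter table for the GRCr8 assembly holds 6 of the 7 genes, with no entry for Sqle. The windows below are shown because these enzymes and regulators lay on opposite sides in the strain comparison below, and each gives the 200 bases before the RefSeq start, 5′ to 3′ on the strand of the gene. Capitals mark CCAAT or its complement ATTGG, the box bound by NF-Y, which acts together with SREBPs at sterol-regulated promoters, and TCACNCCA or its complement TGGNGTGA, a shortened form of the sterol regulatory element.
Hmgcs1, plus strand, chr2:53382104-53382303: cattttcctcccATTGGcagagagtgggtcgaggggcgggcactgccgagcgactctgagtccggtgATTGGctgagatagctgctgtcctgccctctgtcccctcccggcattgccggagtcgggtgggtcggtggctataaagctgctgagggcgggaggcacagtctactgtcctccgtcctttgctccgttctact
Idi1, minus strand, chr17:66547525-66547724: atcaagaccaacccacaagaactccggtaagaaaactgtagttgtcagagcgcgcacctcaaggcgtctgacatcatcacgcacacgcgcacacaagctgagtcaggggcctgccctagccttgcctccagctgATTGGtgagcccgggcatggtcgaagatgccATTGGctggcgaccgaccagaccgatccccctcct
Insig1, minus strand, chr4:8057770-8057969: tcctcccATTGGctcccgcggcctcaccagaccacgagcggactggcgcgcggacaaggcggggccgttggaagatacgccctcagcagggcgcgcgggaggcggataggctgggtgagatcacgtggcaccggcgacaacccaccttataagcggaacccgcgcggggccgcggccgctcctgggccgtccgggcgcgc
Srebf2, plus strand, chr7:115543107-115543306: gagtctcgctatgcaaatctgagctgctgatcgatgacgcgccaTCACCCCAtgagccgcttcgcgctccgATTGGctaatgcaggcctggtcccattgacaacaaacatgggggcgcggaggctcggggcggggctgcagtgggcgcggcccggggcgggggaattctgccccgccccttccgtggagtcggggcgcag

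Over the 300 bases from 250 before to 50 after the start, on both strands, CCAAT was found in all 6 windows (Hmgcs1, Idi1, Fdps, Insig1, Tm7sf2 and Srebf2), against 37.5% of all 33469 promoters in the table and 27 of the 38 promoters of the wider list. TCACNCCA was found in the Srebf2 window alone, against 3.89% of all promoters. The longer TCACNCCAC, which contains TCACNCCA, was in none of the 6, against 1.12% of all. GGGCGG, the GC box bound by SP1, was in 5 of 6 windows, all but that of Idi1, against 33.1%, and CACGTG, an E-box, was in that of Insig1 alone, against 6.42%. These are matches of letters in the reference sequence.

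In hepatocyte-like whole cells, the strains were first compared for the mevalonate enzymes. Hmgcs1, the synthase that makes HMG-CoA, stood at 418 CPM in DA-1, 512 in DA-2, 576 in LEW-1 and 684 in LEW-2. Idi1, the isomerase that makes dimethylallyl diphosphate, stood at 62.0, 73.7, 116 and 113 CPM in the same order. Fdps, which joins these units to farnesyl diphosphate, stood at 224, 297, 321 and 298 CPM. For all of these enzymes both LEW rats lay above both DA rats, with a gap for Fdps of less than 1 CPM between DA-2 and LEW-2.

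The means were 67.8 ± 8.28 CPM in DA and 115 ± 2.52 in LEW for Idi1 (SD, n = 2 each), 465 ± 66.8 and 630 ± 76.5 for Hmgcs1, and 260.3 ± 51.4 and 309 ± 16.3 for Fdps. In the TLH hepatocyte strain test over 9879 genes, Idi1 was 1.71-fold higher in LEW (log2 fold change 0.77, SE 0.15, adjusted p = 0.0258 by edgeR's quasi-likelihood test). It was the only one of the 7 genes past the threshold of 0.05, where 4.31% of all genes tested passed, 2.04% higher in LEW and 2.27% higher in DA. Idi1 still passed without DA-2 (adjusted p = 0.0471), but not without DA-1 (0.114), LEW-1 (0.128) or LEW-2 (0.130), at log2 fold changes of 0.63 to 0.94 over the 4 omissions. Hmgcs1 was at 0.46 (SE 0.16, adjusted p = 0.156) and Fdps at 0.26 (SE 0.17, adjusted p = 0.405).

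Neither sterol-stage enzyme passed. Sqle, the squalene epoxidase that carries out the first oxygenation of squalene, stood at 40.8 and 48.4 CPM in DA and at 64.2 and 66.1 CPM in LEW. Tm7sf2, a sterol reductase, stood at 114 and 122 CPM in DA and at 162 and 110 CPM in LEW. Both LEW rats were above both DA rats for Sqle, whereas for Tm7sf2 the LEW rats lay on either side of the DA rats. The log2 fold change of Sqle was 0.56 (SE 0.15, adjusted p = 0.0737) and that of Tm7sf2 was 0.22 (SE 0.19, adjusted p = 0.541).

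The regulators lay the other way. Insig1 stood at 531 and 669 CPM in DA and at 431 and 314 CPM in LEW, and Srebf2 at 59.3 and 59.0 CPM in DA and at 47.8 and 37.4 CPM in LEW. Both DA rats were above both LEW rats for either gene. The log2 fold changes were -0.67 for Insig1 (SE 0.19, adjusted p = 0.100) and -0.45 for Srebf2 (SE 0.15, adjusted p = 0.141), so neither passed. The strains did not overlap for 6 of the 7 genes, 4 higher in LEW and 2 higher in DA, while among all genes tested 53.1% did not overlap, 24.3% higher in LEW and 28.8% higher in DA. An unadjusted p below 0.05 was reached by 5 of the 7, all but Fdps and Tm7sf2, and by 2099 of the 9879 genes of the TLH hepatocyte strain test.

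**Figure D1:**
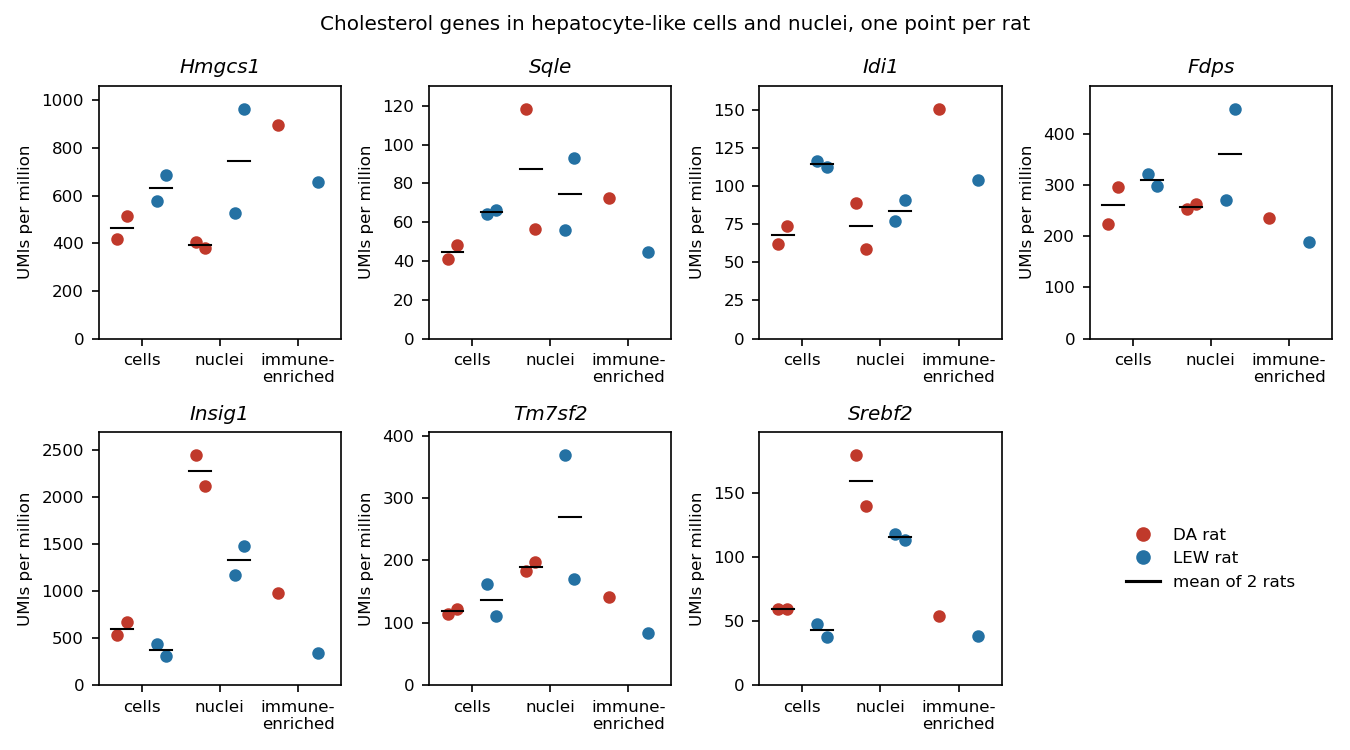
Levels in CPM in the hepatocyte-like cells or nuclei of each rat for the 7 cholesterol genes, with red points for DA, blue points for LEW and a bar at the mean of 2 rats. In the TLH cells the LEW points lie above the DA points for Hmgcs1, Sqle, Idi1 and Fdps and below them for Insig1 and Srebf2, and in the immune-enriched libraries, which are single rats, all 7 genes are higher in DA, as are 56.8% of 10990 genes.

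The wider list gave 3 calls of the 49 genes that could be tested in whole cells, all higher in LEW, where 2.04% of all genes were called in that direction. Besides Idi1 they were Mvd, which makes isopentenyl diphosphate (log2 fold change 0.76, SE 0.16, adjusted p = 0.0371), and Abcg5, a member of the transporter that moves sterols into bile (1.46, SE 0.22, adjusted p = 0.0114). The mevalonate enzymes had 2 calls of 8, sterol disposal 1 of 11, and the sterol enzymes, the regulators of SREBP and the uptake genes none of 11, 11 and 8. The median log2 fold change was 0.25 over the mevalonate enzymes, 0.13 over the sterol enzymes, -0.16 over the regulators and -0.21 over the uptake genes, beside -0.01 over all genes. An unadjusted p below 0.05 was reached by 4 of the 8 mevalonate enzymes, 5 of the 11 sterol enzymes, 4 of the 11 regulators, 0 of the 8 uptake genes and 2 of the 11 disposal genes, 15 of the 49 in all, beside 21.2% of all genes. DESeq2 called 4 genes of the whole list as higher in LEW, Idi1, Abcg5, Msmo1 and Srebf1, where it called 1.84% of all genes in that direction and 4.03% in all. The 3 calls were not stable to the rats included, since none was left without DA-1 or without LEW-1, Idi1 alone was called without DA-2, and Abcg5 and Abcg8 without LEW-2. With no filter on low counts 9 of 51 genes were higher in LEW and 5 in DA, where 3.13% and 3.93% of all 15867 genes were in the TLH hepatocyte strain test.

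Markers of other cell types were present in the hepatocyte-like sums, and 2 marker lists did not overlap between strains. The 17 endothelial markers summed to 1878 to 2204 CPM in DA and 1639 to 1825 CPM in LEW, with at most 1 marker at 0 in a rat. The 8 cholangiocyte markers summed to 48.1 to 48.9 CPM in DA and 34.7 to 37.5 CPM in LEW, with 3 or 4 of them at 0 in DA and 0 or 2 in LEW. Their part in the strain differences was not tested. In the other named classes of the TLH libraries the 7 genes were also counted. Their hepatocyte-like level was 0.979 to 2.07 times that of the other classes, and hepatocyte markers themselves held 7.61% to 9.76% of the UMIs of those other classes. The part of free RNA in these levels was not tested.

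In hepatocyte-like nuclei, none of the 7 genes passed the strain test, where 1.31% of 10584 genes did. Hmgcs1 stood at 404 and 379 CPM in DA and at 525 and 963 CPM in LEW. Fdps stood at 252 and 263 CPM in DA and at 272 and 448 CPM in LEW. Both LEW rats were again above both DA rats for these enzymes, but LEW-2 was far above LEW-1 for each. Over the nuclei libraries the level of the 7 genes was 0.893 to 2.96 times that of the other named classes. The ratio was 0.910 to 1.59 for Insig1 and 0.893 to 1.29 for Srebf2. Hepatocyte markers held 6.02% to 8.33% of the UMIs of those other classes, and the part of free RNA was not tested.

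Insig1 stood at 2439.8 and 2119 CPM in DA nuclei and at 1172 and 1480.1 CPM in LEW nuclei. Srebf2 stood at 179 and 139 CPM in DA nuclei and at 118 and 113 CPM in LEW nuclei. The regulators thus lay above in DA without overlap, as in whole cells. The 18 myeloid markers in the same nuclei sums also did not overlap, at 154 to 165 CPM in DA and 205 to 272 CPM in LEW, with at most 1 of them at 0, and their part was not tested. The log2 fold changes were -0.78 for Insig1 (SE 0.41, adjusted p = 0.578) and -0.45 for Srebf2 (SE 0.36, adjusted p = 0.755), beside 0.91 for Hmgcs1 (SE 0.42, adjusted p = 0.497) and 0.48 for Fdps (SE 0.40, adjusted p = 0.764).

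The other enzymes overlapped between strains in nuclei. Sqle stood at 118 and 56.5 CPM in DA and 56.0 and 93.2 CPM in LEW (log2 fold change -0.26, SE 0.41). Idi1, which passed in whole cells, stood at 88.8 and 58.5 CPM in DA nuclei and 77.2 and 90.5 CPM in LEW nuclei (0.19, SE 0.34). Tm7sf2 stood at 182 and 197 CPM in DA and at 368 and 169 CPM in LEW (0.56, SE 0.47), with LEW-1 alone above the rest. The strains did not overlap for 4 of the 7 genes, against 36.8% of all genes tested. No gene of the 7 had an unadjusted p below 0.05 in edgeR, and DESeq2, which also called none of them, had 2. Of the 48 genes of the wider list that could be tested none passed, with 4 at an unadjusted p below 0.05 and 6 by DESeq2, where 10.4% and 8.16% of all genes reached that level.

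**Figure D2:**
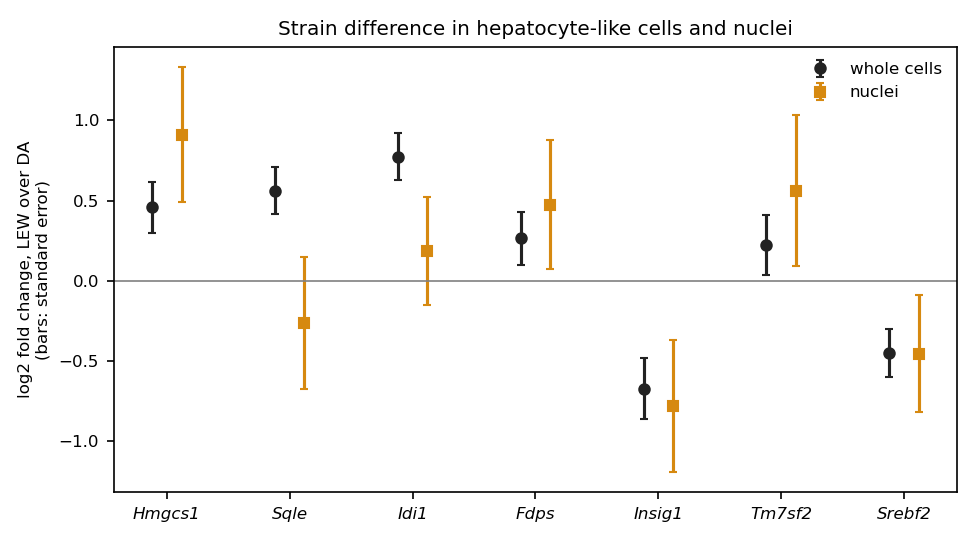
Log2 fold change of LEW over DA in hepatocyte-like whole cells (black circles) and nuclei (orange squares), with bars of 1 standard error from the edgeR fit. The enzymes Hmgcs1, Idi1, Fdps and Tm7sf2 are above 0 and Insig1 and Srebf2 below 0 in both preparations, while Sqle is at 0.56 in cells and -0.26 in nuclei.

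Whether the strain difference itself differed between cells and nuclei was tested as an interaction, which uses the same libraries as both strain tests. None of the 7 genes passed, where 1 of 11584 genes did, which is 0.00863%. With a block by the replicate numbers of the labels the strain by platform interaction had 7 calls, and with one by the animal numbers of the file names 13, again with none of the 7 genes. The largest interactions among the 7 were those of Sqle (-0.88, SE 0.49) and Idi1 (-0.64, SE 0.40), with adjusted p = 0.9999 by edgeR for each. No member had an unadjusted p below 0.05 in edgeR or in DESeq2, which called 11 genes in all. Of the 50 genes of the wider list none passed, with 2 at an unadjusted p below 0.05 in edgeR and 1 in DESeq2. Over all genes 4.45% and 2.37% reached that level, so these counts are no result about the list.

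Hepatocyte-like cells of the immune-enriched libraries gave a further pair of levels, without replicates and thus without a test. The study removed parenchymal cells from these samples by centrifugation, so these were the hepatocytes that remained. Median UMIs of their clusters ran from 1426.5 to 38934, so the sums weigh the deep cells most. These sums are thus not like those of the TLH libraries, from which they also differ in chemistry and sequencer model. Idi1 stood at 150.5 CPM in the DA rat (exact 95% Poisson interval 140.0 to 162) and at 104 CPM in the LEW rat (100.3 to 107). Insig1 stood at 976 CPM (949 to 1003) and 342 CPM (336 to 348), and Hmgcs1 at 897 CPM (871 to 923) and 655 CPM (646 to 664). All 7 genes were higher in the DA library, where 56.8% of the 10990 genes with at least 10 UMIs over both sums were and 43.2% were higher in the LEW library, and with 1 library of each strain the count is no result about these genes. For Hmgcs1, Sqle, Idi1 and Fdps this order was opposite to that of the TLH libraries. The same sums held 300.2 CPM of the 16 lymphoid markers in DA and 54.9 in LEW, 15.9 and 104 CPM of the 4 erythroid markers, and 97776 and 130284 CPM of the 24 hepatocyte markers, with 7 and 2 lymphoid and 2 and 0 erythroid markers at 0. Their part was not tested. The intervals cover counting error only, and 234 DA cells stood against 1562 LEW cells.

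The other members in these libraries were Sqle at 72.5 CPM in DA and 44.7 in LEW, Fdps at 236 and 189, Tm7sf2 at 141 and 84.0, and Srebf2 at 54.0 and 37.9. In these libraries hepatocyte markers held 0.167% of the UMIs of the other named classes in DA and 1.55% in LEW. Insig1 was 39.5 times as high in hepatocyte-like cells as in the other classes in DA and 11.7 times in LEW, and Hmgcs1 was 28.1 and 11.5 times as high. For Srebf2 the ratio was 1.13 in each library, and for the remaining genes it ran from 2.99 (Fdps in DA) to 8.93 (Tm7sf2 in DA).

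Nuclei were then compared with whole cells, with strain as a covariate and with the same 8 libraries as above. Relative to the TMM size factors, which assume that most genes do not differ, Hmgcs1, Idi1 and Fdps were lower in nuclei, Insig1 and Srebf2 were higher, and Sqle and Tm7sf2 did not pass. The background was wide, since 72.9% of 11071 genes passed, 37.9% higher in nuclei and 35.0% higher in cells. That 5 of the 7 genes passed, 2 higher in nuclei and 3 higher in cells, is near these shares and is no result about the 7 genes, and their values are given as a description.

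Insig1 was counted at 314 to 669 CPM over the 4 TLH libraries and at 1172 to 2439.8 CPM over the 4 nuclei libraries. Srebf2 was counted at 37.4 to 59.3 CPM in cells and at 113 to 179 CPM in nuclei. Tm7sf2 was counted at 110 to 162 CPM in cells and at 169 to 368 CPM in nuclei. These 3 genes did not overlap between preparations, as 68.5% of all genes did not, and 54.0% of all genes lay wholly higher in nuclei and 14.5% wholly higher in cells. The log2 fold changes of nuclei over cells were 1.02 for Insig1 (SE 0.21, adjusted p = 0.000671) and 0.58 for Srebf2 (SE 0.18, adjusted p = 0.00907).

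Hmgcs1 was counted at 418 to 684 CPM in cells and 379 to 963 CPM in nuclei, Idi1 at 62.0 to 116 and 58.5 to 90.5, and Fdps at 224 to 321 and 252 to 448. On this scale of library totals the preparations overlapped for each of these enzymes. After TMM scaling the ranges were 539 to 943 CPM in cells and 265 to 651 CPM in nuclei for Hmgcs1, 79.9 to 159.6 and 40.8 to 70.6 for Idi1, and 289 to 439.8 and 184 to 303 for Fdps. The log2 fold changes were -0.88 for Hmgcs1 (SE 0.22, adjusted p = 0.00244), -1.02 for Idi1 (SE 0.21, adjusted p = 0.000631) and -0.77 for Fdps (SE 0.20, adjusted p = 0.00293).

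The scaling set the zero of this comparison. With library totals and no size factors, an alternative chosen after the data had been seen, the median log2 fold change over all genes moved from 0.09 to 0.95, and the hepatocyte platform test gave 8626 calls, 6740 higher in nuclei and 1886 lower, in place of 4196 and 3872. Insig1 was then at 1.88 and Srebf2 at 1.43, above that median, and both passed. Hmgcs1 was at -0.0021, Idi1 at -0.17, Fdps at 0.11, Sqle at 0.58 and Tm7sf2 at 0.83, all below that median, and of these only Tm7sf2 passed, as higher in nuclei. Under either scaling Insig1 and Srebf2 stood above the median gene in nuclei and Hmgcs1, Idi1 and Fdps below it, which is a description of single genes, and the sign of Fdps and Sqle changed. The 3 genes that passed with library totals, all higher in nuclei, stood beside 60.9% of all genes called higher and 17.0% called lower. Sqle was at -0.28 (SE 0.27, adjusted p = 0.374) and Tm7sf2 at 0.0009 (SE 0.26, adjusted p = 0.998) with TMM.

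**Figure D3:**
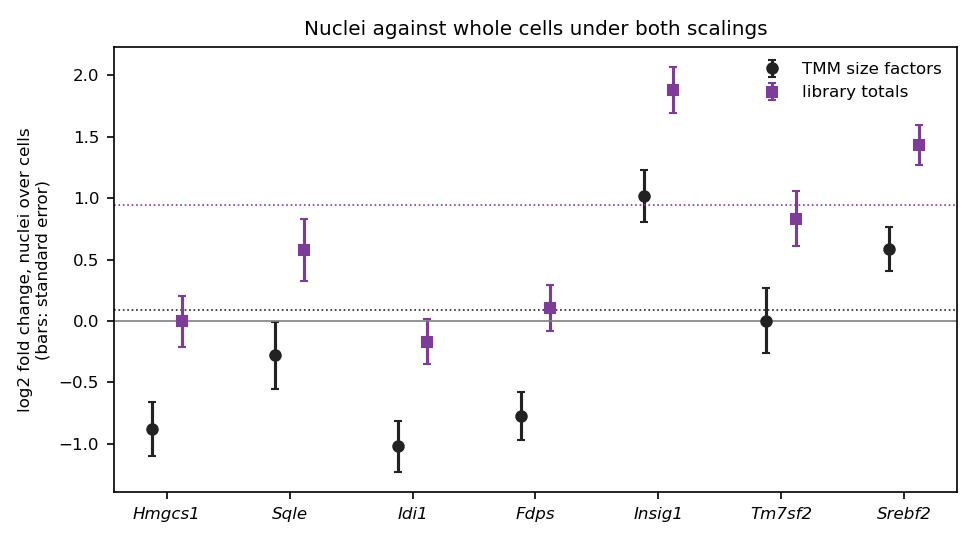
Log2 fold change of nuclei over whole cells with TMM size factors (black circles) and with library totals (purple squares), with bars of 1 standard error and dotted lines at the median over all genes for each scaling. Insig1 and Srebf2 lie above the median under both scalings, and Hmgcs1, Idi1 and Fdps lie below it.

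With TMM, 35 of the 49 tested genes of the wider list passed, 19 higher in nuclei and 16 higher in cells, a share near the 72.9% of all genes and thus no result about the list. The counts by role are a description, and a difference between roles was not tested. Of the 8 mevalonate enzymes 7 were lower in nuclei, led by Mvd (log2 fold change -1.61, SE 0.16) and Pmvk (-1.34, SE 0.21), and 1 was higher. Of the 11 sterol enzymes 4 were lower and none higher, led by Ebp (-1.08, SE 0.18). Of the 11 regulators 7 were higher, led by Erlin2 (2.28, SE 0.27), a protein of the endoplasmic reticulum, and 1 was lower, Erlin1 (-0.72, SE 0.20).

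Of the 8 uptake and transport genes 6 were higher in nuclei, among them Scarb1, the HDL receptor (1.32, SE 0.17), and Npc1, which moves cholesterol out of lysosomes (1.05, SE 0.20). The other two, Mylip (-1.32, SE 0.39) and Npc2 (-1.19, SE 0.24), were lower. Of the 11 disposal genes 5 were higher and 2 lower. With library totals 30 of the 49 genes were higher in nuclei and 2 lower, beside 60.9% and 17.0% of all genes in the hepatocyte platform test, so the share called higher was again no result about the list, and the values of Erlin1, Hsd17b7, Msmo1, Nr1h3 and Fdps were above 0. Between TLH cells and nuclei, preparation, chemistry, sequencer and the counting of unspliced RNA cannot be told apart from platform. For the counting of unspliced RNA no setting is given in the sources used here. Immune-enriched whole cells, with the chemistry and sequencer model of the nuclei, were not in the hepatocyte platform test.

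Zone was read within hepatocyte-like nuclei from a score of 6 periportal genes (Tf, Ass1, Arg1, Gls2, Srd5a1 and Orm1) and 4 pericentral genes (Oat, Sult1e1, Cyp2e1 and Glul). The study's periportal list also holds Hmgcs1, which was left out here together with every other cholesterol gene. The nuclei of each rat were ranked by the score and cut into 3 groups of equal size, and the periportal group was compared with the pericentral one, with the rat as a block. These are the nuclei of the strain and platform tests. The score is a range rather than a cell type, and 11.7% to 15.1% of the nuclei of these outer groups lay within 0.1 score units of a limit. It did not part each of its own genes in every rat. Tf, of the periportal list, stood at 18731 CPM in the periportal and 20369 CPM in the pericentral group of DA-1. In DA-2 it stood at 22444 and 17551 CPM and in LEW-1 at 36241 and 21541 CPM.

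Sqle stood at 168 CPM in the periportal and 93.6 CPM in the pericentral group of DA-1, at 74.1 and 50.4 in DA-2, at 71.8 and 48.0 in LEW-1, and at 112 and 72.7 in LEW-2. It was lower in the pericentral group of every rat. The log2 fold change of pericentral over periportal was -0.72 (SE 0.15, adjusted p = 0.0111), which made Sqle the only one of the 7 genes past the threshold, where 1.93% of 9065 genes passed as higher in the periportal and 1.99% as higher in the pericentral group. Without DA-2 or LEW-2 it did not pass (adjusted p = 0.0819 and 0.117 at -0.78 and -0.72), and without DA-1 Sqle, Idi1, Hmgcs1 and Tm7sf2 all passed, where 4.65% of all genes of the nuclei zone test passed in that direction.

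Hmgcs1 stood at 463 and 370.3 CPM in the periportal and pericentral groups of DA-1, 487 and 311 in DA-2, 596 and 469 in LEW-1, and 1136 and 822 in LEW-2. Idi1 stood at 101 and 85.8, 72.3 and 57.6, 91.0 and 63.9, and 117 and 75.7 CPM in the same order, and Tm7sf2 at 206 and 170.2, 239 and 170.1, 458 and 276, and 219 and 134 CPM. Each was lower in the pericentral group of all 4 rats, as was Srebf2, at 232 and 139, 149 and 129.8, 121 and 119, and 113 and 107 CPM. Thus 5 of the 7 genes had this order in every rat, beside 7.16% of all genes. The log2 fold changes were -0.51 for Hmgcs1 (SE 0.18, adjusted p = 0.163), -0.50 for Idi1 (SE 0.17, adjusted p = 0.138), -0.62 for Tm7sf2 (SE 0.19, adjusted p = 0.0863) and -0.32 for Srebf2 (SE 0.16, adjusted p = 0.414). None of these passed. An unadjusted p below 0.05 was reached by Sqle, Idi1, Hmgcs1 and Tm7sf2, and by 1227 of the 9065 genes of the nuclei zone test.

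Fdps and Insig1 did not have 1 order. Fdps was at 273 and 244, 296 and 224, 258 and 283, and 449.7 and 405 CPM in the periportal and pericentral groups (log2 fold change -0.21, SE 0.17). Insig1 was at 3005 and 1732 CPM in DA-1 and 2377 and 1853 in DA-2, but at 1109 and 1393 in LEW-1 and 1413 and 1436 in LEW-2 (-0.26, SE 0.20). With these groups it was lower in the pericentral group of both DA rats and higher there in LEW-1, while LEW-2 was at a log2 ratio of 0.02. With nuclei cut into 2 groups LEW-2 was at -0.03, and with the other zone lists given next Insig1 was lower on the pericentral side in all 4 rats, at -1.41 and -1.07 in DA and -0.87 and -0.60 in LEW.

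Another choice of zone genes changed these calls in nuclei. With other lists (Hal, Cps1, Sds, Cyp2f4, Aldh1b1 and Hsd17b13 against Cyp1a2, Slc1a2, Rhbg, Gulo, Aldh1a1 and Cyp2c12), which also hold no cholesterol gene, Tm7sf2 passed in the opposite direction, at 1.01 (SE 0.22, adjusted p = 0.00122). The log2 ratios of CPM of Tm7sf2 were 1.15 and 1.01 in the DA rats and 0.43 and 0.06 in the LEW rats, all above 0. Hmgcs1 was fitted at 0.36, Idi1 at 0.53 and Fdps at 0.20, and none of them passed. Their log2 ratios of CPM lay on both sides of 0, at 0.04, 0.26, 0.21 and -0.47 for Hmgcs1, -0.21, 1.02, 0.38 and -0.43 for Idi1, and 0.01, -0.48, 0.08 and -0.22 for Fdps in DA-1, DA-2, LEW-1 and LEW-2. With library totals in place of size factors, added after seeing the data, the other lists put Hmgcs1 at 0.0089, Idi1 at 0.18 and Fdps at -0.16, with the median over all genes of the nuclei zone test at -0.43 in place of -0.09, and Tm7sf2 still passed, at 0.66 (adjusted p = 0.00945). The direction of Hmgcs1, Idi1 and Fdps was thus not settled with these lists. With size factors Sqle was at -0.11 (adjusted p = 0.680) and Insig1 passed at -0.63 (adjusted p = 0.0225). With the other lists and size factors 37.2% of 9311 genes passed, so 2 of the 7 is not above the background. Those groups differed in depth, with medians of 2478.5 UMIs in the periportal against 1324 in the pericentral group of DA-1, 2904 against 1452.5 in DA-2, 1876 against 1383 in LEW-1 and 2295.5 against 1940.0 in LEW-2. The groups of the first lists had 1744 against 1472, 1842 against 1814, 1518.5 against 1617 and 1897.5 against 2423. The part of depth was not tested.

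**Figure D4:**
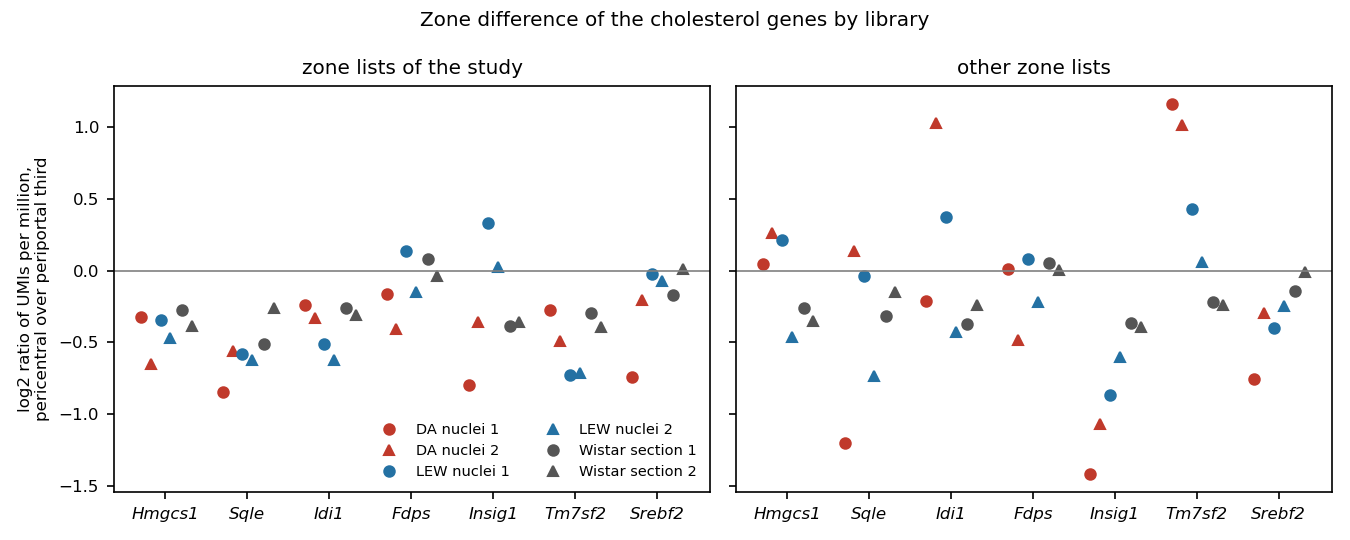
Log2 ratio of CPM, pericentral over periportal group, for each nuclei library (red DA, blue LEW) and each Wistar section (grey), with circles for replicate 1 and triangles for replicate 2, with the zone lists of the study less Hmgcs1 at the left and the other zone lists at the right. With the first lists Hmgcs1, Sqle, Idi1 and Tm7sf2 are below 0 in all 6 libraries, and with the other lists the nuclei lie on both sides of 0 for Hmgcs1, Sqle and Idi1 and above 0 for Tm7sf2, while the sections stay below 0 for these genes.

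A test of whether the zone difference differed between strains, on the same sums, called none of the 7 genes, where 1.38% of 9065 genes were called, 0.309% more positive in LEW and 1.07% more negative. Tm7sf2 (-0.64, SE 0.26, adjusted p = 0.164) and Idi1 (-0.59, SE 0.26, adjusted p = 0.213) had an unadjusted p below 0.05 in edgeR, and in DESeq2, which also called none, 1 of the 7 did. Over all genes 1749 of 9065 reached that level in edgeR. For Insig1 the interaction was 0.46 (SE 0.29, adjusted p = 0.384). The split of all calls depended on the scaling, since library totals, added after seeing the data, gave 98 calls more positive in LEW and 18 more negative in place of 28 and 97 in the strain by zone interaction, with the median over all genes at 0.33 in place of 0.03. Of the wider list Dhcr7, which encodes the last reductase of the pathway, was the 1 call of 47 genes, at -1.03 (SE 0.26, adjusted p = 0.0412). With library totals Dhcr7 did not pass, at -0.72 (adjusted p = 0.132).

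In nuclei the wider list had 7 calls of 47 genes between zones, 5 periportal and 2 pericentral, where 3.92% of all 9065 genes were called, 1.93% periportal and 1.99% pericentral. Without DA-1 the counts were 9 and 2, without DA-2 2 and 1, without LEW-1 3 and 2, and without LEW-2 2 and 2, while the fit with no rat block gave 2 and 1. Over all genes of the nuclei zone test the shares called were 7.77%, 2.02%, 4.29% and 2.35% without these rats and 1.19% with no rat block. The other zone lists gave 4 periportal and 16 pericentral calls of the 47, where 17.3% and 19.9% of all genes were called, 37.2% in all, so their total is near the background. Higher in the periportal group were Sqle, Dhcr7 (log2 fold change -0.83, SE 0.21), Scap (-0.57, SE 0.15, adjusted p = 0.04995), and the sterol exporters Abcg8 (-2.55, SE 0.18) and Abcg5 (-2.16, SE 0.17). Higher in the pericentral group were Cyp7a1, the rate-limiting enzyme of bile acid synthesis (3.92, SE 0.25), and Cyp27a1, of the alternative route (1.15, SE 0.20). All 8 mevalonate enzymes and all 11 sterol enzymes had a fitted value below 0, with medians of -0.27 and -0.37 beside 0.002 over all genes, but no mevalonate enzyme and only Sqle and Dhcr7 among the sterol enzymes passed. With the other zone lists of the nuclei zone test Dhcr7 passed in the opposite direction, at 1.03 (adjusted p = 0.000753), and Scap was at 0.41. The 15 mesenchymal markers summed to 71.8 to 107 CPM in the periportal and 121 to 235 CPM in the pericentral groups, with 1 to 4 of them at 0, and their part was not tested.

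On the Wistar sections each spot is a small region of tissue that holds several cells. The sections had 2437 and 2404 spots with medians of 13773 and 14240.5 UMIs, shared 1793 spot positions of the array, and were scored by the same zone genes. Within a spot, fewer cells of a type and less RNA per cell cannot be told apart. The p-values below come from a fit to these 2 sections, which the study describes as those of 2 rats. The fit draws the spread of each gene partly from other genes. These p-values are thus no measure of the spread between rats.

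Hmgcs1 stood at 266 CPM in the periportal and 219.9 CPM in the pericentral group of section 1, and at 265 and 203 in section 2. Insig1 stood at 175 and 134, and at 144 and 113 CPM. Tm7sf2 stood at 190.2 and 155, and at 202 and 154 CPM. Each of these was lower in the pericentral group of both sections, with log2 fold changes of -0.34 for Hmgcs1 (SE 0.03, adjusted p = 1.816e-21), -0.38 for Insig1 (SE 0.04, adjusted p = 6.54e-20) and -0.35 for Tm7sf2 (SE 0.04, adjusted p = 2.408e-19) in the Visium zone test.

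Sqle stood at 34.9 and 24.5 CPM in section 1 and 30.8 and 25.7 in section 2, and Idi1 at 39.3 and 32.8, and at 44.7 and 36.0 CPM. They were lower as well, at -0.40 for Sqle (SE 0.08, adjusted p = 2.295e-05) and -0.30 for Idi1 (SE 0.07, adjusted p = 0.000454). Fdps stood at 449 and 475 CPM in section 1 and 497 and 484 in section 2, and Srebf2 at 86.8 and 77.2, and at 87.5 and 88.2 CPM. These genes took opposite signs in the 2 sections and did not pass (0.01, SE 0.03, and -0.09, SE 0.05). In all, 5 of the 7 genes passed as higher at the periportal side, where 8.26% of 9605 genes did and 7.14% passed as higher at the pericentral side. These 5 were higher on the periportal side in both sections, where 30.9% of all genes were and 33.9% were higher on the pericentral side in both.

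The calls of Hmgcs1, Insig1 and Tm7sf2 were also made by DESeq2, which called 363 genes in all in place of 1479, and those of Sqle and Idi1 were not (adjusted p = 0.408 and 0.672). The fit with no section block called Hmgcs1, Sqle and Tm7sf2 but not Insig1 or Idi1, where 3.11% of all genes were called periportal. With the other zone lists all 5 genes passed in the same direction on the sections, where 6.75% of all genes did in the Visium zone test. Markers of other cells moved with the zones. The 18 myeloid markers summed to 1649.8 to 1839 CPM in the periportal and 1083 to 1179 CPM in the pericentral groups, the 4 erythroid markers to 1013 to 1291 and 1901 to 2034 CPM, and the 15 mesenchymal markers to 585 to 637 and 784 to 881 CPM. The other lists did not overlap between zones either, with the 8 cholangiocyte markers at 55.3 to 66.4 CPM in the periportal and 48.0 to 48.9 CPM in the pericentral groups, the 16 lymphoid markers at 87.6 to 91.5 and 76.3 to 78.3 CPM, and the 17 endothelial markers at 1513 to 1536 and 1583 to 1584 CPM, with 0 to 3 markers of a list at 0. The 24 hepatocyte markers themselves summed to 215860.1 to 215874 CPM in the periportal and 194079 to 196236 CPM in the pericentral groups. Their part in the zone differences was not tested.

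Along 10 equal bins of the zone score, from periportal bin 1 to pericentral bin 10, the profiles of these genes had different shapes. Hmgcs1 went from 306 CPM in bin 1 to 230.3 in bin 5 and 214 in bin 10 of section 1, and from 292 to 216 and 198 in section 2. Insig1 was at 165 in bin 1, 174 in bin 7 and 111 in bin 10 of section 1, and at 139, 134 and 83.6 in section 2, so that its lowest values lay at the central end. Tm7sf2 was lowest between, at 141 in bin 6 of section 1 and 136 in bin 8 of section 2, and stood at 176 and 172 in bin 10. Fdps varied between 434 and 499.9 in section 1 and between 473 and 509 in section 2. Spots were split on the measured score, so these profiles are a description.

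**Figure D5:**
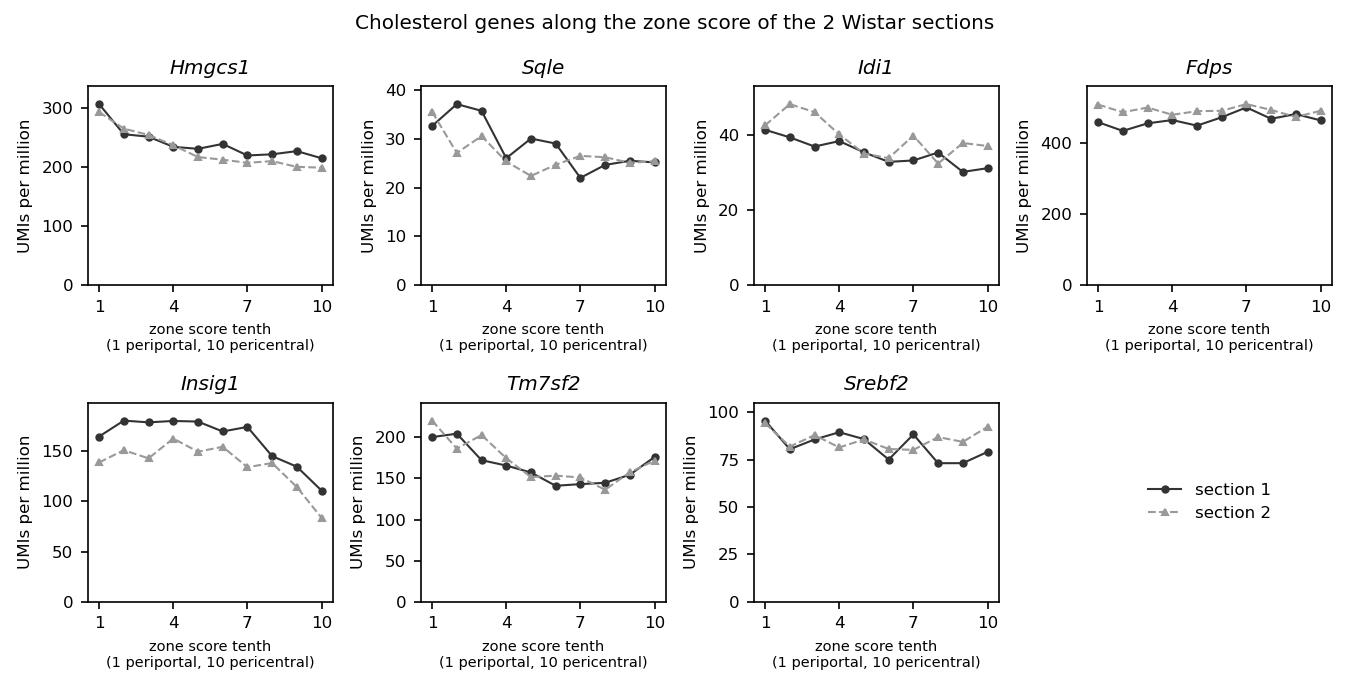
Levels in CPM of the 7 cholesterol genes in 10 equal bins of the zone score of each Wistar section, from periportal (1) to pericentral (10), with section 1 as black circles and section 2 as grey triangles. Hmgcs1 is highest in bin 1, Insig1 is lowest in bin 10, Tm7sf2 has its lowest values between, and Fdps stays between 434 and 509 CPM.

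Over the wider list, 22 of 49 genes passed on the sections, 8 higher at the pericentral and 14 at the periportal side, where 15.4% of all 9605 genes passed, 7.14% pericentral and 8.26% periportal. The sterol enzymes parted, with Sqle and Tm7sf2 periportal and 4 pericentral, among them Msmo1 (log2 fold change 0.35, SE 0.04), Sc5d (0.21, SE 0.03) and Ebp (0.11, SE 0.03). Among regulators Insig1 and Srebf1 (-0.10, SE 0.03) were higher on the periportal side, and Insig2 (0.21, SE 0.05), the second INSIG protein, on the pericentral side. Of the uptake genes 4 were periportal, among them Scarb1 (-0.32, SE 0.05), Npc2 (-0.25, SE 0.04) and Lrp1 (-0.15, SE 0.04), and Npc1 (0.33, SE 0.06) was pericentral. DESeq2 called 5 and 5 genes, without Scarb1, Npc2, Lrp1, Npc1, Insig2, Srebf1 and Ebp, and the fit with no section block called 5 and 7, where 3.78% and 5.69% of all genes were called in the Visium zone test. Among disposal genes the fit gave wide differences, with Cyp7a1 at 1.90 (SE 0.07) and Abcg5 at -1.81 (SE 0.16).

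Whether the 7 genes varied together from spot to spot was described by Pearson correlation of log counts per 10000 UMIs, which share depth within a spot and are sparse, with a UMI of Sqle in 31.9% and 30.8% of spots and of Fdps in 97.0% and 96.4%. After regression on the zone score and on UMIs, the median over the 21 gene pairs was 0.0162 in section 1 and 0.0133 in section 2, beside 0.0012 over all pairs of 3998 genes in each, whose 5th and 95th percentiles were -0.0349 and 0.0387, and -0.0354 and 0.0401. Of the 21 pairs 15 and 18 were positive. The highest values were 0.0873 for Hmgcs1 with Tm7sf2 in section 1 and 0.0885 for Fdps with Tm7sf2 in section 2. Correlations this weak in sparse counts are no finding.

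The genes whose spot pattern was most like that of the summed 7 genes, by the mean of this residual correlation over both sections among 3991 genes, were Mt-atp6 (0.167), Akr1d1 (0.148), Sod1 (0.140), Mt-nd4 (0.137) and Mt-nd2 (0.131). Of the wider list, Nsdhl was at 0.0776 (rank 67) and Msmo1 at 0.0743 (rank 75).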

How the data were processed

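The deposited counts are UMI counts per gene and barcode, or per gene and spot, that the authors made with Cell Ranger 3.1.0 and Space Ranger 1.1.0 against a custom Rattus norvegicus 6.0 reference, per the labels and the study's methods. Whether intronic reads were counted is not given in the sources used here. The matrices of whole cells carry no gene names, so each row was given the name at the same row of the nuclei matrices. For every gene, p-values reach no further than the samples deposited, and the spread in each fit is partly shared over genes.

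The 7 genes, the wider lists, the markers and the zone genes were chosen with earlier results of these data known. Cells with under 1500 (TLH DA-1), 2000 (other TLH), 1000 (nuclei and immune-enriched) UMIs, or above a mitochondrial share of 20% to 50%, or 10% in nuclei, were left out. The UMI limit of 2000 for LEW cells stands in for the stated 1500, which would have kept 12124 and 7857 cells in place of 5457 and 3844. Libraries were normalised with sctransform 0.4.2, joined over 15 principal components with a Harmony-type correction by library and clustered with Seurat 5.3.0 (resolution 0.6 for cells, 2.5 for nuclei), without the cholesterol genes, and clusters were called hepatocyte-like from markers. The study found doublets spread evenly and kept them, and no doublet caller was run here.

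UMIs were summed per rat, or per rat or section and zone group, and tested with edgeR 4.0.16 (quasi-likelihood, TMM, filterByExpr, Benjamini-Hochberg over all genes, R 4.3.3), with DESeq2 1.42.0 as an alternative. Standard errors are the fold change divided by the root of F. Total UMIs were 61441846 to 92484173 per TLH library and 8039397 to 15186970 per nuclei library. The text names all 7 genes in each comparison, up to 5 genes with the largest change per list and direction of those that passed, and the 5 genes with the most similar spot pattern. A few genes that the naming rule would give are not reported here. The scripts were tested on simulated data. There the nuclei hepatocyte strain test called 1.5% of genes changed by a log2 fold of 1 and 85% of those changed by 2. The TLH hepatocyte strain test called 54% and 90%. At a log2 fold of 0.5 the TLH hepatocyte strain test called 1%, the nuclei zone test 2.5% and the Visium zone test 59%. Not passing in cells or nuclei is thus no sign of equal levels. Replicate numbers did not pair the samples, and alternatives were other size factors, no filter, blocks, other clusters, other cell limits, other zone genes and leaving out each rat.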

Additional observations from a re-analysis of the deposited data

Results flagged for a closer look

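The zone difference of Dhcr7 differed between strains by the test of the difference itself. The log2 interaction was -1.03 (SE 0.26, adjusted p = 0.0412 by edgeR's quasi-likelihood test). Dhcr7 stood at 156 CPM in the periportal and 114 CPM in the pericentral nuclei of DA-1 and at 131 and 104 CPM in DA-2, against 219.9 and 115 CPM in LEW-1 and 127 and 50.1 CPM in LEW-2. With the first zone lists it was lower in the pericentral nuclei of all 4 rats, with the wider gap in LEW. These levels rest on 220 and 161, 217 and 185, 674 and 410, and 214 and 98 UMIs. In the strain by zone interaction Dhcr7 did not pass without DA-1 (adjusted p = 0.192), LEW-1 (0.454) or LEW-2 (0.125), nor with DESeq2 (0.128), library totals (0.132) or no replicate block (0.937), the last of which called 0 genes in all. The zone difference itself turned with the zone lists, since with the other zone lists of the nuclei zone test Dhcr7 was higher in the pericentral group, at 1.03 (adjusted p = 0.000753).

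With the first zone lists, the zone difference of Insig1 had opposite signs in the strains, with log2 ratios of pericentral over periportal CPM of -0.79 and -0.36 in the DA rats and of 0.33 and 0.02 in the LEW rats. The means of these ratios differed by 0.75. The signs depended on how nuclei were grouped. With nuclei cut into 2 groups LEW-2 was at -0.03, and with the other zone lists all 4 rats were below 0, at -1.41 and -1.07 in DA and -0.87 and -0.60 in LEW. That pattern of signs is not itself a test, and the fitted interaction of 0.46 (SE 0.29, adjusted p = 0.384) did not pass.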

How the results depend on the processing

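Each value is that of the named test under the stated alternative. Counts are genes past the threshold, followed by how many of the 7 cholesterol genes passed. A percentage after a count is its share of all genes tested under that setting.

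For the TLH hepatocyte strain test (426, 1) no filter on low counts gave 1120 (7.06%) and 4, and all kept cells gave 607 (5.45%) and 2. For the nuclei hepatocyte strain test (139, 0) library totals gave 363, no filter 517 and DESeq2 246. For the hepatocyte platform test (8068, 5) library totals gave 8626 (77.9%) and 3. For the strain by platform interaction (1, 0) library totals gave 2, no filter 28, DESeq2 11, all kept cells 2 and the limit of 1500 UMIs 0. For the nuclei zone test (355, 1) no filter gave 502 (2.96%) and 2, DESeq2 286 (3.15%) and 2 and the other zone lists 3463 (37.2%) and 2. These lists with library totals, added after seeing the data, gave 4711 (50.6%) and 2. For the strain by zone interaction (125, 0) RLE size factors gave 204, DESeq2 27, the other zone lists 640 (6.87%) and 1, and halving the nuclei by score 445. For the Visium zone test (1479, 5) DESeq2 gave 363 (3.78%) and 3. The median residual spot correlation of 0.0148 became 0.0104 without spots under 5000 UMIs and 0.0100 with Spearman's rho. The unadjusted one of 0.0404 became 0.0176 without spots under 5000 UMIs. With Spearman's rho it was 0.0286 in section 1 and 0.0448 in section 2.

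Replicate numbers were shared by the groups, but deviations of equal numbers correlated at -0.141 in TLH and 0.0794 in nuclei, so the numbers were not taken as pairs. With the replicate block the TLH hepatocyte strain test gave 200 and 0 and the nuclei hepatocyte strain test 461. The crossed block, added after seeing the data, gave 1089 (11.0%) and 4 in TLH. With no replicate block the nuclei zone test gave 104 (1.19%) and 0, the strain by zone interaction 0 and the Visium zone test 547 (5.69%) and 3. In the hepatocyte platform test the block by the animal numbers of the file names, also added, gave 8605 (74.3%) and 5. For the strain by platform interaction the block by replicate number gave 7 and 0 and the block by animal number 13 and 0, both added after seeing the data. Deviations of libraries with the same animal number correlated at 0.231 in DA and 0.119 in LEW.

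Leaving out each rat in turn gave 130 to 268 (0 to 1 of the 7) in the TLH hepatocyte strain test, 86 to 276 (0) in the nuclei hepatocyte strain test, 7676 to 8491 (5 to 6) in the hepatocyte platform test, 0 to 5 (0) in the strain by platform interaction, 182 to 706 (0 to 4) in the nuclei zone test and 7 to 733 (0) in the strain by zone interaction.

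The log2 values below changed sign, and values without single rats or sections are given as the lowest and highest. In the hepatocyte platform test library totals gave 0.14 for Erlin1, 0.11 for Fdps, 0.0483 for Nr1h3, 0.58 for Sqle, 0.30 for Hsd17b7 and 0.33 for Msmo1. Tm7sf2, near 0 there, was at -0.0727 with the replicate block, -0.0720 with the block by file names, -0.0876 with each library clustered on its own, -0.0232 with 1500 UMIs, and -0.31 to 0.24 without single rats. In the TLH hepatocyte strain test Tm7sf2 was at -0.0723 (without LEW-1) to 0.47. In the nuclei hepatocyte strain test Sqle was at -0.75 to 0.48 (without DA-1), Idi1 at -0.14 (without DA-2) to 0.62 and Tm7sf2 at -0.26 (without LEW-1) to 1.09. In the strain by platform interaction Srebf2 was at 0.0056 with library totals, 0.0611 with all kept cells and -0.25 to 0.25 without single rats, where Insig1 was at -0.38 to 0.10, Fdps at -0.11 to 0.44 and Tm7sf2 at -0.48 to 0.88. In the nuclei zone test the other zone lists gave 1.03 for Dhcr7, 1.01 for Tm7sf2, 0.36 for Hmgcs1, 0.20 for Fdps, 0.41 for Scap and 0.53 for Idi1, and these lists with library totals gave 0.67 for Dhcr7, 0.66 for Tm7sf2, 0.0089 for Hmgcs1, 0.0587 for Scap, -0.15 for Cyp27a1 and 0.18 for Idi1, while Fdps kept its sign. By single rats the log2 ratios of CPM of Hmgcs1, Idi1 and Fdps lay on both sides of 0 with these lists. In the strain by zone interaction library totals gave 0.0840 for Hmgcs1, 0.28 for Fdps and 0.11 for Sqle, the other zone lists gave -0.0172 for Srebf2, and leaving out single rats gave -0.20 to 0.15 for Fdps and -0.0992 to 0.32 for Srebf2. In the Visium zone test single sections gave -0.0374 and 0.0809 for Fdps and 0.0111 and -0.17 for Srebf2. The cause of these changes was not tested. Of all values for single genes under the alternatives, 1185 kept their direction and their side of the threshold, 88 no longer passed, 17 newly passed and 48 changed sign.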

Other observations

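With the first zone lists, the sterol disposal genes Cyp7a1, Cyp27a1 and Abcg8 had larger fitted zone differences than each of the 7 synthesis and regulation genes, on sections and in nuclei, which was not tested as a difference. On the sections Cyp7a1, the first enzyme of bile acid synthesis, was at a log2 fold change of 1.90 and Cyp27a1 at 0.60 towards the pericentral side, and Abcg8 at -1.20, Cyp8b1 at -0.21 and Lcat at -0.10 towards the periportal side. In nuclei Cyp7a1 was at 3.92 and Cyp27a1 at 1.15, and Abcg8 at -2.55. Cyp7a1, Cyp27a1 and Abcg5 were also called by DESeq2 in both. The Visium value of Abcg8 was not (adjusted p = 0.0965). In the nuclei zone test Cyp27a1 did not pass with the other zone lists (0.21, adjusted p = 0.448), with no rat block or without DA-2, and with those lists Tm7sf2, at 1.01, was larger, while Cyp7a1 was at 2.68 and Abcg8 at -1.39.

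Animal numbers in the file names of the nuclei run opposite to the labels for DA. Deviations of cells and nuclei from their group means over 10595 genes correlated at -0.231 for the DA numbers of the labels and 0.231 for those of the file names, and at 0.119 for LEW under both. With 2 rats per strain these values are mirror images of each other.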
